A study of Mus musculus with 6 samples.

Results

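The 36 genes described here form a list of megakaryocyte and platelet genes, and not all of them are restricted to these cells. They were taken by gene name from a table of 54532 genes, and each name was found once. By role, 11 encode granule and secreted proteins or proteins that make granules, 14 encode receptors and other membrane proteins, and 11 encode signaling proteins, enzymes and cytoskeletal proteins. RNA-seq was done on fresh femoral marrow cells of mice without an engineered allele, labelled wild type. The unloaded group (3 libraries, named OP-HU in the labels) came from mice under hindlimb unloading for 4 weeks, in which the hind limbs are lifted so that they carry no weight, a model of osteoporosis from disuse. The control group (3 libraries) came from mice with no such treatment. Age is not given in the sources used here, and neither is whether each library is a separate animal or a pool, so each p-value rests on variation among libraries that may be technical in part.

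Megakaryocytes are large marrow cells that shed platelets into the sinusoids. They load alpha granules with adhesive proteins and chemokines, and they carry surface receptors for von Willebrand factor, collagen, thrombin and ADP. When a receptor is engaged, signals through calcium and small GTPases switch the integrin of Itga2b and Itgb3 into its fibrinogen-binding form, and the granules are released. Some of the genes are nearly restricted to this lineage, while others, such as those of kindlin-3 and pleckstrin, also serve leukocytes.

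The promoters below belong to the granule and receptor genes whose level was lower in each unloaded library than in any control library, except Vwf. Each runs from 250 bases before to 50 bases after the gene's start, on the plus strand of GRCm38.p6, from RefSeq. Capitals mark matches to AGATAA or TGATAA, motifs of the GATA family of transcription factors, of which Gata1 drives megakaryocyte maturation. The windows lie at chr5:90768268-90768567 for Ppbp, chr5:90772185-90772484 for Pf4, chr17:48359666-48359965 for Treml1 and chr6:129397047-129397346 for Clec1b.
Ppbp: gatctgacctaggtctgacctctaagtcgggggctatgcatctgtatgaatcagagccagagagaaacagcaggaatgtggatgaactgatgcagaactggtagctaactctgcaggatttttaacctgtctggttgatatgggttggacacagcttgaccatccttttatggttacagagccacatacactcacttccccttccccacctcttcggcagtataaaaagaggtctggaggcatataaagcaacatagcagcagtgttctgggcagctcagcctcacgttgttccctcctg
Pf4: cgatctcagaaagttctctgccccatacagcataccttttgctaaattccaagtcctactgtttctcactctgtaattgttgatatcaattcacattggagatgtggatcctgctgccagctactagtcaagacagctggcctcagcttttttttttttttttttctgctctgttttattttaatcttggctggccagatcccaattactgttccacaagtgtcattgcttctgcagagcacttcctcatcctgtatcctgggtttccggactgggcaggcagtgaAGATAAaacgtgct
Treml1: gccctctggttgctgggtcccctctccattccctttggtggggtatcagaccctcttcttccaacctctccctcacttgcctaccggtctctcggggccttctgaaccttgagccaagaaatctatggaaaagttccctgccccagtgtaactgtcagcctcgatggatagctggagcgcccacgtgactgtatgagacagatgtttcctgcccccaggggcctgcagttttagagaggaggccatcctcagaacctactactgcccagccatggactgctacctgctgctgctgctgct
Clec1b: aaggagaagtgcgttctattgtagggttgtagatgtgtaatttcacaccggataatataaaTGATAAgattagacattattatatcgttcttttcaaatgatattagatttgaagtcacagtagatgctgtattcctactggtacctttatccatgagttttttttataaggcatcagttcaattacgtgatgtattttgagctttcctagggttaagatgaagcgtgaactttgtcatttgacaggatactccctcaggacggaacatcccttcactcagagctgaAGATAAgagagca

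Pf4 held 1 match, at bases 37 to 42 counted from the start as base 1. Clec1b held 2, at -189 to -184 and at 38 to 43. The windows of Ppbp and Treml1 held none, which says only that these letters are not there. RefSeq promoters were matched for 28 of the 36 genes, with 30 windows. On either strand a GATA motif was in 7 of the 30 windows, or 23.3%, against 18.6% of all 32851 windows of the same table. The ETS motif CAGGAAG was in 3 of the 30 windows, or 10%, of these genes against 13.3% of all windows, the RUNX motif TGTGGT in 13.3% against 16.8%, and TGAGTCA, the core bound by NF-E2 and AP-1, in 3.33% against 5.2%. AGATAA and TGATAA share the letters GATAA and were counted together, and a match is a description, not a bound site.

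Libraries held 15850986 to 16543465 counts in the unloaded group and 16727836 to 17775506 in controls. Neutrophil markers were the most abundant of the marrow lists, with a summed level of 43486 to 54075 CPM (depth-normalised read counts, after TMM scaling) in unloaded and 46824 to 53489 CPM in control libraries. The unloaded 1 library stood apart, at -51.3 on the first principal component against 7.37 to 13.7 in the other 5. Its mitochondrial transcripts made up 0.439% of counts against 1.05% to 1.27%.

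Setting unloaded beside control marrow addressed how marrow transcripts differ once weight bearing is removed. The genes Ppbp, Treml1, Myl9, Alox12 and Gp6 were at 0.370 to 0.477 times the control level, none of them past the adjusted threshold. Other granule genes such as F5, Nbeal2 and Selp were at 0.935 to 0.943 times that level, and Fermt3, Plek, Bin2 and Rasgrp2, which leukocytes also use, were at 0.981 to 1.07 times. The receptor genes Gp5, Itga2b, Gp1ba and P2ry12 were at 0.905, 0.967, 1.05 and 1.14 times, while 10 of the 13 receptor genes tested had negative fold changes. Thbs1 stood on the other side, at 1.93 times the control level. F5 and Nbeal2 averaged 147 and 545 CPM in control libraries, against 12.9 CPM for Pf4 and 12.7 CPM for Ppbp. Which marrow cells the F5 and Nbeal2 reads came from was not tested. In whole marrow, fewer cells of a type and less RNA per cell cannot be told apart.

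No gene passed edgeR's quasi-likelihood test at a Benjamini-Hochberg adjusted p under 0.05, neither among these genes nor among the 15015 tested (0%). The smallest adjusted p here was 0.51, for Ppbp. At an unadjusted edgeR p under 0.05, 9 of the 35 tested genes were lower and 1 was higher, where 3.18% of all tested genes were lower and 2.67% higher. Gp1bb was too low to test. In 7 of the 36 genes the 3 unloaded values all lay below the 3 control values, against 6.4% of all tested genes, and in 0 they all lay above, against 5.46%. Of the 35 genes 26 had a fold change below 0, against 7333 of all 15015 tested genes. Over all 35 the median log2 fold change was -0.14, while all tested genes had a median of 0.01. DESeq2 called 40 genes, of which 26 were lower, or 0.173% of those tested, and Ppbp was the 1 called gene of the 36. Limma-voom called 0 genes.

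Without unloaded 1, 29 of 35 fold changes were below 0 and the median was -0.17, 8 were lower at an unadjusted p under 0.05 against 5.18% of all genes, and 12 had groups separated downward, against 13.3%, and 0 upward. Without unloaded 2 the median was -0.27, and the groups were separated downward in 13 genes and upward in 1, against 11.8% and 11.4% of all. Without control 2 there were 11 downward, against 10.4%, and 0 upward, and without control 3 there were 10 downward, against 10.7%, and 0 upward. Leaving out unloaded 3 or control 1 gave 10 downward and 2 upward, against 12.2% and 11.2% of all for unloaded 3 and 9.25% and 8.43% for control 1. Without control 1, 5 genes were lower at an unadjusted p under 0.05, against 1.65% of all.

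**Figure D1:**
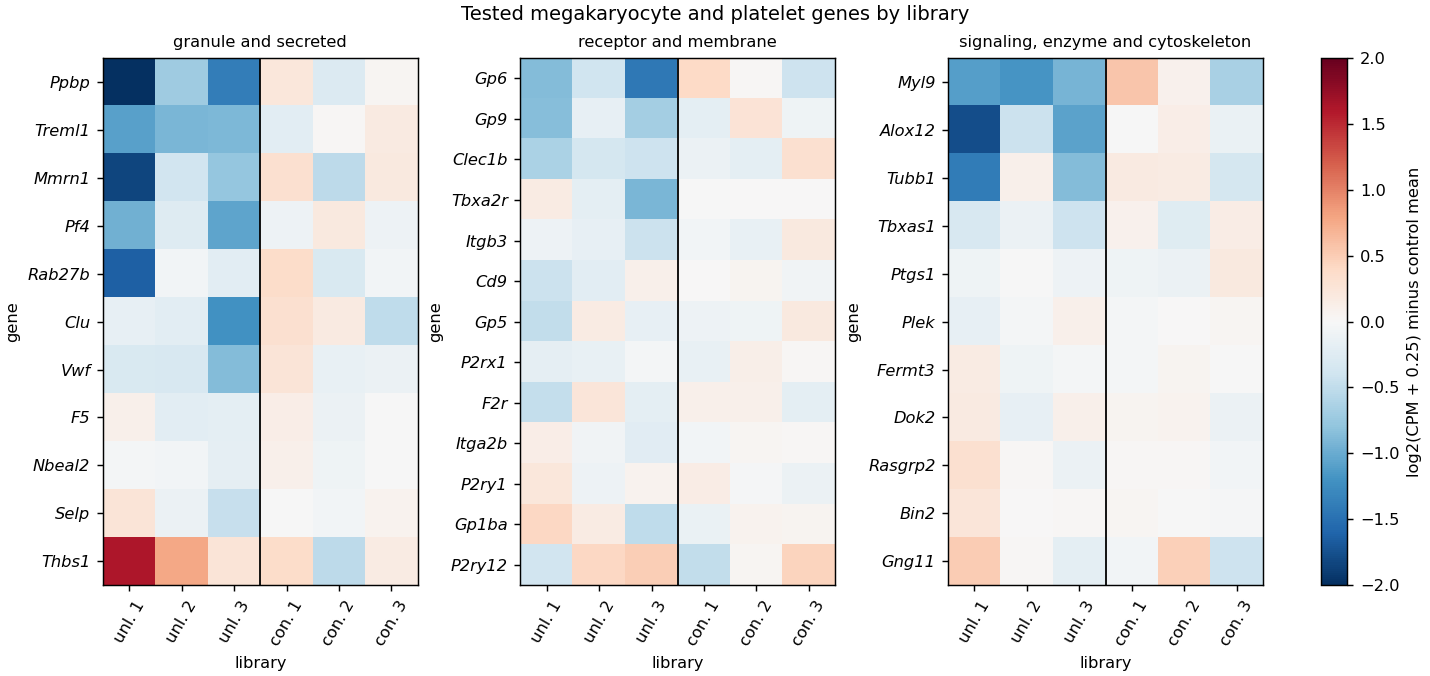
Each column is a library and each row 1 of the 35 tested genes, with colour giving log2(CPM + 0.25) minus the mean of the 3 control libraries. Blue fills the upper rows of each panel in the unloaded columns, reaching -1.99 for Ppbp in unloaded 1, while Thbs1 is red at 1.62 in that library.

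Among granule genes, Ppbp had 2.99, 7.60 and 4.69 CPM in unloaded libraries 1 to 3, against 14.8, 10.4 and 13 CPM in control libraries 1 to 3. It encodes the precursor of the platelet chemokines of the CXCL7 family (ENSMUSG00000029372, mm10 chromosome 5, 90768518 to 90770063). All unloaded values lay below the controls, with a log2 fold change of -1.32 ± 0.30 (SE), which ran from -1.73 to -1.05 with a library left out. The adjusted p was 0.51 by edgeR and 0.00543 by DESeq2, in a range of 7.2e-06 to 0.999 over the alternatives. Its neighbour Pf4, which begins 2371 bases beyond its end, encodes platelet factor 4 (ENSMUSG00000029373, chromosome 5, 90772435 to 90773383). Pf4 was at 6.5, 10.8 and 6.05 CPM in unloaded libraries and at 12, 14.8 and 12 CPM in controls. The groups were again separated, but unloaded 2 came close to the lowest control, and the log2 fold change was -0.73 ± 0.23 (edgeR adjusted p = 0.787).

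Treml1, whose product sits in the alpha granule membrane and reaches the surface on activation, had nearly equal unloaded values. Its level was 1.53, 1.77 and 1.79 CPM in unloaded libraries, against 3.03, 3.62 and 4.05 CPM in controls (log2 -1.07 ± 0.27, edgeR adjusted p = 0.6). No unloaded library came near a control one, and the log2 fold change ran from -1.17 to -0.97 with a library left out. Vwf, which encodes von Willebrand factor, the bridge between collagen and the platelet receptor complex, was at 15.6, 15.4 and 10.5 CPM in unloaded libraries and at 23.3, 17.4 and 18 CPM in controls. Unloaded 3 was the lowest, the groups did not overlap, and the log2 fold change was -0.50 ± 0.19 (edgeR adjusted p = 0.804). Endothelium also makes Vwf, Selp and Mmrn1. Of 11 endothelial markers 7 were tested, 6 of them with negative fold changes and a median of -0.51, none was at 0 in all libraries, and their summed level was 21.4 to 23.3 CPM in unloaded and 27.3 to 28.5 CPM in control libraries. Their part in the Vwf result was not tested.

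Thbs1 differed from the other granule genes in direction. It encodes thrombospondin-1, an adhesive protein that monocytes and stromal cells produce as well as platelets. Its level was 637, 353 and 246 CPM in unloaded libraries and 267, 143 and 231 CPM in control libraries, so unloaded 1 was far above the rest while unloaded 3 lay within the control range. The log2 fold change was 0.94 ± 0.31 (edgeR adjusted p = 0.801), 0.49 without unloaded 1 and 1.21 without unloaded 3. F13a1, which encodes the A chain of coagulation factor XIII and is shared by monocytes and megakaryocytes, was likewise highest in unloaded 1, at 785, 503 and 622 CPM in unloaded libraries against 511, 486 and 487 CPM in controls. The 6 monocyte markers, all detected, summed to 2849, 2398 and 2657 CPM in the unloaded libraries and 2938, 2631 and 2555 CPM in the controls. Of these markers 3 had negative and 3 positive fold changes. At an unadjusted edgeR p under 0.05, 1 was lower and 1 higher, beside 3.18% and 2.67% of all tested genes. The part of monocytes in the Thbs1 result was not tested.

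The other 6 granule genes overlapped between the groups. Mmrn1, which encodes the factor V-binding protein multimerin-1, averaged 2.97 ± 1.46 CPM in unloaded and 5.84 ± 1.75 CPM in control libraries (SD, n = 3 each), with 1.40 CPM in unloaded 1 (log2 -0.97 ± 0.38, or -0.64 without that library and -1.34 without unloaded 2). Rab27b, a GTPase of dense granule secretion, and Clu, which encodes the granule protein clusterin, had log2 fold changes of -0.55 ± 0.40 and -0.54 ± 0.36. With a library left out, Rab27b ran from -0.85 (without unloaded 2) to -0.17 (without unloaded 1) and Clu from -0.76 (without control 3) to -0.25 (without unloaded 3). The fold changes of F5, the coagulation factor V gene, Nbeal2, needed for alpha granule formation, and Selp, the P-selectin gene, ran from -0.10 to -0.08. In the GENCODE M21 annotation Gm16548 and Gm16587, on the other strand, share 9.93% and 4.21% of the exon bases of Selp. They had 5 to 24 and 1 to 22 counts per library, against 49 to 81 for Selp. The part of shared reads in the Selp value was not tested. Over all 11 granule genes 10 fold changes were negative, with a median of -0.54, 5 were lower and 1 higher at an unadjusted p under 0.05, and 4 had separated groups, beside 3.18%, 2.67% and 6.4% of all tested genes. Leaving out unloaded 3 gave a median of -0.34, and leaving out control 1 gave -0.35.

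**Figure D2:**
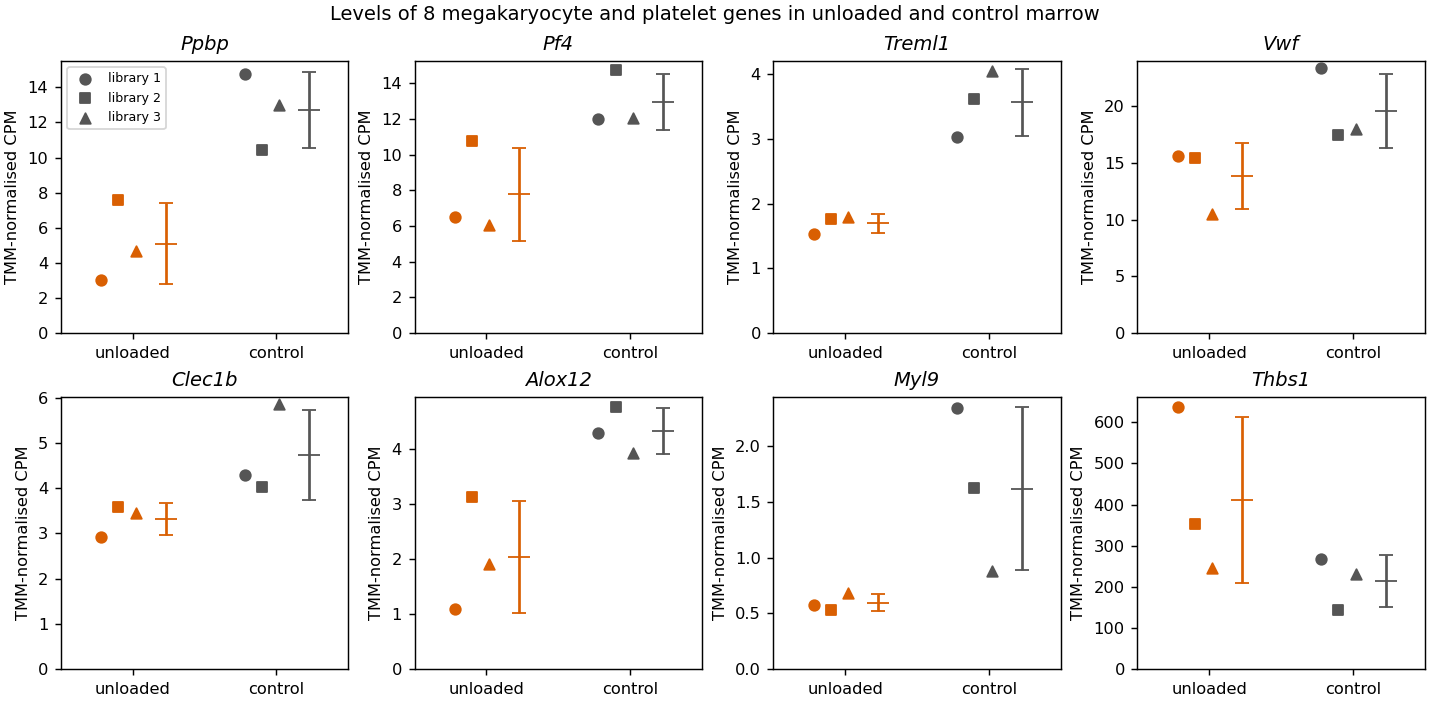
TMM-normalised CPM of 8 genes in the 3 unloaded (orange) and 3 control (grey) libraries, with a symbol for each library number and, beside the points, the mean and SD. The 7 genes other than Thbs1 are those of the 36 with all unloaded points below all control points. That separation follows from the choice of genes and was present in 6.4% of all tested genes. Thbs1 reaches 637 CPM in unloaded 1.

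Among 14 receptor genes, 1 had separated groups, where 6.4% of all tested genes had. The collagen receptor gene Gp6, which encodes glycoprotein VI, had 0.573, 0.884 and 0.309 CPM in unloaded libraries and 1.72, 1.27 and 0.881 CPM in control libraries. Its highest unloaded value just exceeded the lowest control, and at 5 to 30 counts per library the log2 fold change of -1.11 ± 0.47 is imprecise (edgeR adjusted p = 0.816). Clec1b, the gene of the podoplanin receptor CLEC-2, was at 2.93, 3.59 and 3.46 CPM in unloaded libraries and at 4.29, 4.04 and 5.87 CPM in controls. These groups were separated (log2 -0.51 ± 0.25, or -0.32 without control 3, edgeR adjusted p = 0.873), and no other receptor gene had separated groups. In the GENCODE M21 annotation 3.61% of the exon bases of Clec1b are shared with Clec9a on the same strand. Clec9a was at 3.12, 5.18 and 4.26 CPM in unloaded libraries and at 5.72, 5.36 and 8.16 CPM in controls (log2 -0.61 ± 0.26). The part of shared reads in the Clec1b value was not tested.

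The receptor for von Willebrand factor is a complex of the products of Gp1ba, Gp1bb, Gp9 and Gp5, and the fold changes of its genes had either sign. Gp9, a small subunit needed for surface transport, was at 3.50, 5.77 and 3.95 CPM in unloaded libraries and at 5.66, 7.90 and 6.11 CPM in control libraries. Unloaded 2 lay just above the lowest control, and the log2 fold change was -0.57 ± 0.25 (edgeR adjusted p = 0.847). Gp1ba, the ligand-binding chain, was at 6.12, 5.07 and 3.09 CPM in unloaded libraries against 4.12, 4.76 and 4.70 CPM in controls. It overlapped fully (log2 0.07 ± 0.27) and its sign turned to -0.15 without unloaded 1. Gp5 had a log2 fold change of -0.14 ± 0.22, turning to 0.01 without unloaded 1.

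Gp1bb had 1, 0 and 1 counts in unloaded libraries and 0, 2 and 2 in control libraries, under the limit of 3 counts that corresponds to 0.172 to 0.191 CPM. In the GENCODE M21 annotation 1902 of its 2087 exon bases, 91.1%, are also exon bases of Sept5 on the same strand, a gene of a septin known in platelets, and 41.5% are shared with Gm49601, also on that strand. Sept5 was at 53.0, 50.4 and 54.7 CPM in unloaded libraries and 53.0, 58.2 and 56.1 CPM in controls (log2 -0.08 ± 0.10), and reads of the shared bases cannot be told apart between these genes. How the counting treated such reads is not given in the sources used here, so the near-absence of Gp1bb counts is no measure of its expression.

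The fibrinogen receptor genes were well covered. Itga2b, the alpha IIb chain, had 67.2, 58.0 and 51.9 CPM in unloaded libraries and 58.5, 62.9 and 61.8 CPM in controls. The groups overlapped, with a log2 fold change of -0.05 ± 0.12 that became 0.03 without unloaded 3. Itgb3, the beta 3 chain that osteoclasts also carry, had 73.5, 70.6 and 58.7 CPM in unloaded libraries against 76.6, 71.6 and 90.6 CPM in controls. Unloaded 1 lay above control 2, and the log2 fold change was -0.24 ± 0.13, or -0.13 without control 3 (edgeR adjusted p = 0.883). The 6 osteoclast markers, of which Calcr was at 0 in all libraries, summed to 42.5 to 64.9 CPM in unloaded and 51.5 to 71.0 CPM in control libraries. Acp5 made up most of these sums, averaging 49.0 CPM in unloaded and 47.0 CPM in control libraries. Of the 3 markers tested, 2 had negative fold changes and 1 a positive one, with a median of -1.28. In 2 of them the groups were separated downward, where 6.4% of all tested genes had this. The part of osteoclasts in the Itgb3 value was not tested.

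Cd9, a tetraspanin gene of platelets and many marrow cells, was at 128, 149 and 186 CPM in unloaded libraries and at 174, 181 and 166 CPM in control libraries. Unloaded 3 was the highest of all 6, and the log2 fold change was -0.17 ± 0.13, -0.05 without unloaded 1 and -0.33 without unloaded 3. The ADP receptor genes P2ry12 and P2ry1 had log2 fold changes of 0.19 ± 0.33 and 0.07 ± 0.15, and the ATP-gated channel gene P2rx1 had -0.13 ± 0.12. For F2r, a protease-activated receptor gene, the value was -0.12 ± 0.21, and for the thromboxane receptor gene Tbxa2r -0.26 ± 0.27, with -0.52 without unloaded 1 and -0.0045 without unloaded 3. An antisense gene covers 23.1% of the exon bases of P2ry1, but it had at most 4 counts in any library. Of the 13 receptor genes tested 10 were negative, the median was -0.14 (-0.27 if unloaded 2 was left out), and 2 were lower at an unadjusted p under 0.05, where 3.18% of all tested genes were.

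Among 11 signaling, enzyme and cytoskeletal genes, 2 had separated groups, where 6.4% of all tested genes had. Alox12, the gene of the platelet 12-lipoxygenase that turns arachidonic acid into 12-HETE, had 1.08, 3.12 and 1.91 CPM in unloaded libraries and 4.29, 4.76 and 3.93 CPM in control libraries. Unloaded 1 was the lowest and unloaded 2 the nearest to the controls (log2 -1.08 ± 0.35, -0.78 without unloaded 1 and -1.53 without unloaded 2; edgeR adjusted p = 0.795). Myl9, a myosin regulatory light chain gene used in platelet formation, had 0.573, 0.530 and 0.679 CPM in unloaded libraries against 2.34, 1.63 and 0.881 CPM in controls. The unloaded values were nearly equal and the controls widely spread, with 9 to 11 counts in unloaded and 15 to 41 in control libraries (log2 -1.44 ± 0.45, edgeR adjusted p = 0.77). Smooth muscle and pericytes also express Myl9. Their 5 markers, none of them at 0 in all libraries, summed to 12.1 to 15.1 CPM in unloaded and 11.9 to 17.5 CPM in control libraries, and their part was not tested.

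Tubb1, the gene of the beta tubulin that forms the platelet's marginal band, was at 1.66, 5.18 and 2.53 CPM in unloaded libraries and at 5.49, 5.43 and 3.70 CPM in control libraries. Unloaded 2 lay within the control range, and the log2 fold change was -0.63 ± 0.38, -0.33 without unloaded 1 and -1.22 without unloaded 2 (edgeR adjusted p = 0.89). The enzymes that lead from arachidonic acid to thromboxane had smaller fold changes than Alox12, a difference between genes that was not tested. Tbxas1, the thromboxane synthase gene, was at 25.2, 29.2 and 23.6 CPM in unloaded libraries and at 33.6, 26.7 and 35.3 CPM in controls, with control 2 among the unloaded values (log2 -0.29 ± 0.14). Ptgs1, which encodes cyclooxygenase-1, the step before it, had -0.07 ± 0.11.

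The remaining signaling genes overlapped between the groups. Plek, the gene of the protein kinase C substrate pleckstrin, had 220, 239 and 266 CPM in unloaded libraries and 239, 248 and 252 CPM in control libraries, with full overlap (log2 -0.03 ± 0.11). Bin2, a membrane-bending protein gene, had 202, 171 and 174 CPM in unloaded libraries against 174, 169 and 168 CPM in controls (log2 0.10 ± 0.10). Unloaded 1 was the highest and the others were close together. Fermt3, the gene of the integrin activator kindlin-3, Rasgrp2, which encodes the calcium sensor of Rap1, Dok2, an adaptor gene, and Gng11, a G protein gamma subunit gene, had log2 fold changes between 0.02 and 0.11. All 4 were negative without unloaded 1, between -0.14 and -0.03. Of the 11 genes of this role 6 were negative with a median of -0.03, and 2 were lower and 0 higher at an unadjusted p under 0.05, beside 3.18% and 2.67% of all tested genes.

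**Figure D3:**
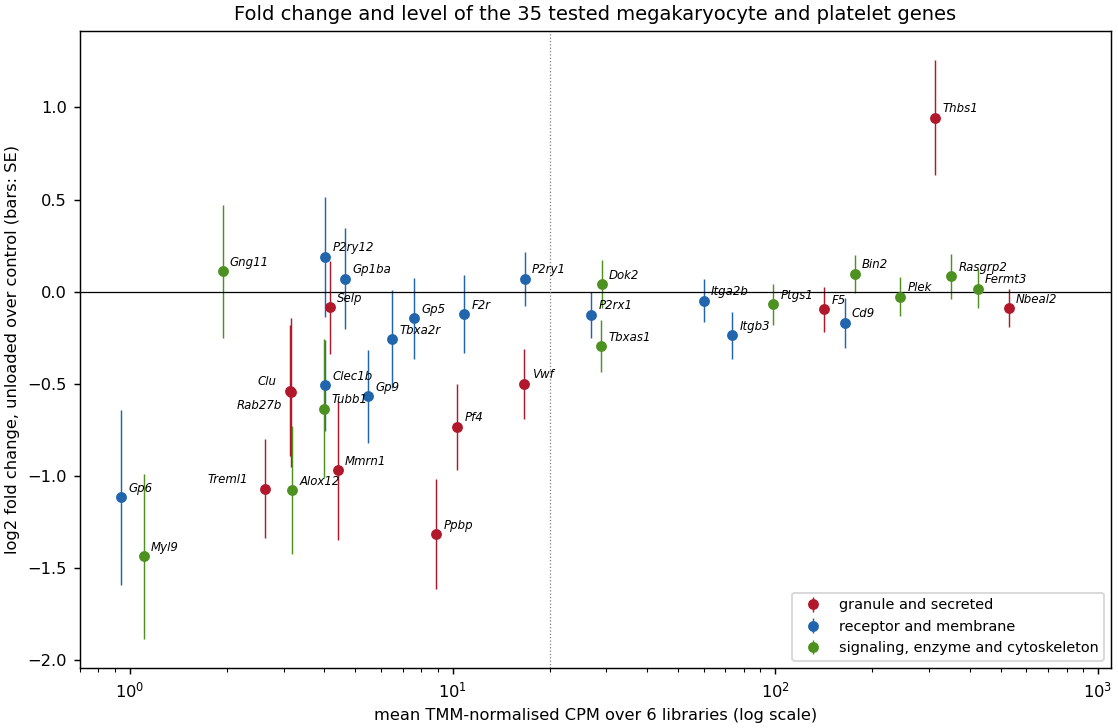
Log2 fold change of unloaded over control with its SE against the mean CPM over the 6 libraries on a log axis, for the 35 tested genes coloured by role, with a dotted line at 20 CPM. Left of the line most genes lie below 0 with long error bars, and right of it most lie close to 0, apart from Thbs1 at 0.94.

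Level was also set beside fold change. Split at 20 CPM over all 6 libraries, a value chosen after the data were seen, 17 of the 21 tested genes under it were below 0, the median was -0.54 and 7 had separated groups. The 14 genes over it included 9 negative ones, with a median of -0.06 and 0 separated groups. All tested genes had medians of 0.03 under and -0.01 over this level, with 45.5% and 52.1% of fold changes below 0. Their groups were separated downward in 5.93% and 6.87%. Compared per kilobase of the deposited gene length (RPKM), Fermt3 was the most abundant at 165 RPKM in unloaded and 163 in control libraries. Its deposited length of 2587 bases is shorter than its 5784 annotated exon bases, so reads per kilobase are overstated for it if reads were counted over all exons. The rank of Fermt3 above Cd9 rests on that shorter length. Cd9 followed at 75.5 RPKM in unloaded and 84.9 in control libraries. Among lineage-restricted genes, Pf4 was at 10.8 RPKM in unloaded and 17.9 in control libraries, and Ppbp at 4.70 and 11.7. The integrin pair was nearly level, with Itgb3 at 11.5 RPKM in unloaded and 13.5 in control libraries and Itga2b at 10.8 and 11.2. Gp9 at 5.01 RPKM in unloaded and 7.44 in control libraries and Gp5 at 3.29 and 3.63 stood above Gp1ba at 1.75 and 1.67.

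Other genes of the lineage were examined from further lists. Meis1, a homeobox factor gene that stem cells also express, had 3.95, 4.48 and 5.56 CPM in unloaded libraries against 6.29, 7.60 and 6.46 CPM in controls. All unloaded values were below the controls, with a log2 fold change of -0.54 ± 0.22 (edgeR adjusted p = 0.805). The 6 stem and progenitor markers summed to 108, 172 and 159 CPM in unloaded libraries and to 160, 162 and 168 CPM in controls, with unloaded 1 apart, and their part in the Meis1 value was not tested. Fli1, an ETS factor gene of the lineage, had -0.17 ± 0.11, and Mafg, which encodes a partner of NF-E2, had -0.14 ± 0.10. Gata1 and Nfe2, the genes of the factors of megakaryocyte maturation and platelet release, had 0.02 ± 0.14 and -0.04 ± 0.12. Of the 13 transcription factor genes, 0 passed edgeR's test over all genes, 1 was lower and 0 higher at an unadjusted p under 0.05, beside 3.18% and 2.67% of all tested genes, and the median was -0.06.

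Among 18 further platelet surface and secreted genes 13 were negative, with a median of -0.34, and 0 passed edgeR's test over all genes, with 3 lower and 1 higher at an unadjusted p under 0.05, beside 3.18% and 2.67% of all tested genes. In 4 of them, Itga6, F2rl2, Mrvi1 and Trpc6, the groups were separated downward, as in 6.4% of all; Trpc6 was named after its value was seen. Itga6, the laminin receptor gene, had 30.4, 39.5 and 39.1 CPM in unloaded libraries and 50.3, 49.5 and 48.6 CPM in controls, which were separated (log2 -0.45 ± 0.12, edgeR adjusted p = 0.683). F2rl2, a protease-activated receptor gene, and Mrvi1, a target of cGMP kinase, had -0.79 ± 0.28 and -0.71 ± 0.28, both with separated groups. The 1 higher gene was F13a1. Lists of broader function had medians near 0. Granule formation and release had 0.01 over 19 genes, with Stxbp2 (0.21 ± 0.12), Lyst (-0.23 ± 0.17) and Snap23 (-0.10 ± 0.10) at the smallest p. Shared activation signaling had -0.03 over 19 genes, led by Prkca (-0.47 ± 0.19), Pik3cg (-0.17 ± 0.09) and Gna13 (-0.18 ± 0.10), and these 3 had groups separated downward, where 6.4% of all tested genes had. The platelet-forming cytoskeleton had 0.02 over 10 genes, led by Vcl (-0.22 ± 0.16), Diaph1 (0.21 ± 0.16) and Was (-0.10 ± 0.10). In these 3 lists 0 genes passed edgeR's test over all genes, and Prkca was the 1 gene with an unadjusted p under 0.05.

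**Figure D4:**
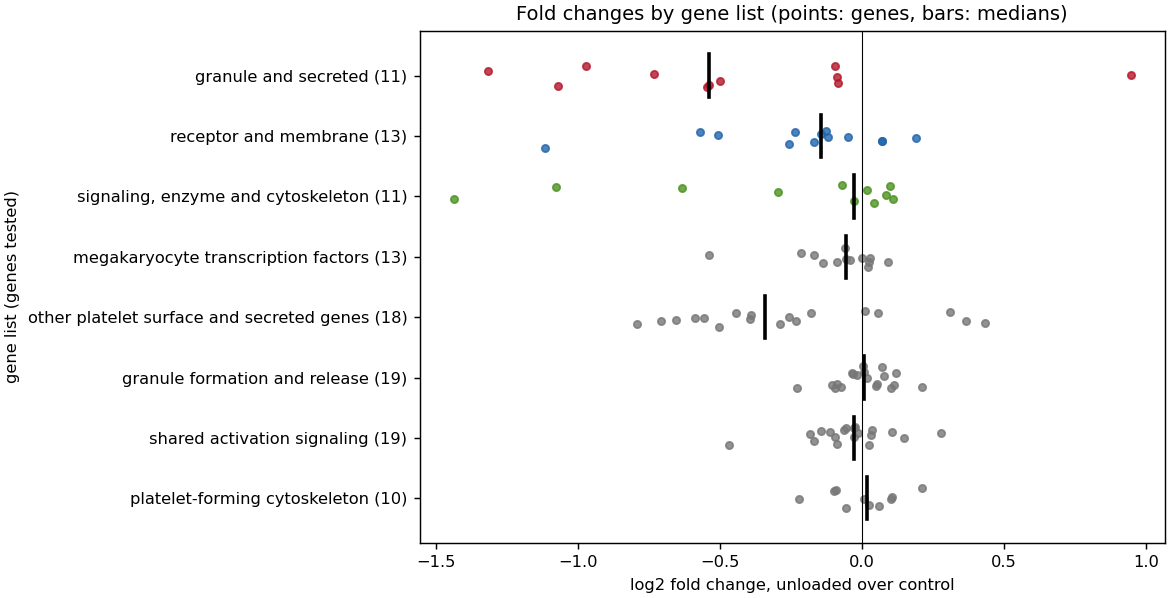
Each point is the log2 fold change of a tested gene, in rows by list, with a bar at the median; the first 3 rows hold the 35 tested genes and the grey rows hold further lists. The bars lie at -0.54 for granule genes and -0.34 for further platelet surface and secreted genes, and between -0.14 and 0.02 for the other lists.

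Markers of other marrow cells were measured in the same libraries. The 9 erythroid markers, a lineage that shares Gata1 and a progenitor with megakaryocytes, summed to 5189 to 7201 CPM in unloaded and 4324 to 5229 CPM in control libraries, with 8 of 9 fold changes positive. The 5 basophil and mast cell markers summed to 302 to 353 CPM in unloaded and 384 to 398 CPM in control libraries, with 5 of 5 negative. The B lineage list had 6 of 6 negative, with a sum of 414 to 603 CPM in unloaded and 548 to 646 CPM in control libraries. Of all 15015 tested genes 7333 had negative and 7682 positive fold changes. The 7 macrophage markers summed to 252 to 324 CPM in unloaded and 265 to 300 CPM in control libraries, the 8 stroma and bone markers to 75.8 to 164 and 106 to 247 CPM, and the 5 T cell markers to 31.2 to 53.0 and 24.8 to 34.8 CPM. The part of these cells in the values of the megakaryocyte and platelet genes was not tested.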

How the data were processed

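Bone marrow RNA was sequenced in 6 libraries, grouped by their titles into 3 unloaded and 3 control. The submitters' processing notes name CASAVA, HISAT2 2.0.5, featureCounts 1.5.0-p3 and mm10. The deposited table holds raw read counts per gene, not normalized, and the gene length in bases, of which 35 of 36 equal the exon bases of GENCODE M21. Whether counting used strand or reads that align in several places is not stated in what was used here, so counts of overlapping genes are uncertain.

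Genes were kept by edgeR's filterByExpr, which left 15015 of 54532. Counts were scaled by TMM and groups compared with edgeR 4.0.16 (glmQLFit, glmQLFTest) in R 4.3.3, with Benjamini-Hochberg adjustment over all genes tested and a threshold of 0.05. SE was taken as the size of the log2 fold change over the root of the F statistic. CPM are TMM-normalised, and mean ± SD are over 3 libraries. A floor of 3 counts covers counting error only. Alternatives used DESeq2 1.42.0 and limma 3.58.1, other scalings and filters, protein-coding genes alone, each library left out, and the replicate number as a block. Limma-voom with library weights was added after seeing the data. No 2 libraries agreed within sampling noise, with chi-square per degree of freedom from 6.64 to 34.3 over 15 pairs.

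The 36 genes and all lists were chosen with earlier results of these data known. Values in all libraries are given for the 5 genes of each role whose p was smallest and for 8 preset genes (Pf4, Itga2b, Itgb3, Gp1ba, Gp9, Vwf, Tubb1 and Plek). Up to 3 genes with the smallest p are named per further list, beside Gata1, Nfe2, F13a1 and Trpc6, which were chosen after their values were seen. A gene of the lineage lists is not reported here.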

Additional observations from a re-analysis of the deposited data

How the results depend on the processing

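By edgeR 0 genes were called with RLE or upper-quartile scaling, with at least 1 CPM in 3 libraries and with protein-coding genes alone, and limma-voom also called 0. DESeq2 called 40 genes, of which Ppbp was 1 of the 36. With no low-count filter edgeR called 183 genes, 2 of them among the 36, Ppbp (adjusted p = 7.2e-06) and Thbs1 (adjusted p = 7.3e-10). In that setting F5, Nbeal2, Plek, Bin2 and Thbs1 had nearly the same SE, 0.125 to 0.127. The SE of Thbs1 was 0.312 in the main fit, and its groups overlapped, so its small adjusted p without the filter does not reflect its spread between libraries. Limma-voom with library weights called 8 genes and 0 of the 36. The replicate block gave 1 call and 0 of the 36. Libraries with the same number were not treated as pairs in the main comparison. The correlations of their deviations from the group means were 0.03, -0.06 and 0.02, and only number 3 correlated best with its own. With so few libraries these values cannot show whether the design was paired. Leaving out each library gave 0 to 5 called genes, the 5 without unloaded 1, and 0 of the 36 in each case. With a library left out, 10 to 13 of the 36 genes had every unloaded library below every control. The share of all tested genes was then 9.25% to 13.3%, as fewer values are compared. The median log2 fold change ran from -0.27 (without unloaded 2) to -0.13. The causes of the changed calls were not tested.

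The sign of 13 small fold changes turned with a library left out, over ranges of -0.30 to 0.085 for Selp, -0.15 to 0.034 for Itga2b, -0.15 to 0.30 for Gp1ba, -0.33 to 0.0084 for Gp5, -0.032 to 0.46 for P2ry12, -0.011 to 0.15 for P2ry1 and -0.35 to 0.034 for F2r. The ranges were -0.047 to 0.17 for Rasgrp2, -0.061 to 0.065 for Fermt3, -0.10 to 0.035 for Plek, -0.032 to 0.13 for Dok2, -0.14 to 0.42 for Gng11 and -0.13 to 0.032 for Ptgs1. With library weights the signs also turned for Gp1ba (-0.10), F2r (0.015), Rasgrp2 (-0.012), Fermt3 (-0.051), Plek (0.0066), Dok2 (-0.036) and Gng11 (-0.046). Among the tested genes, Gp6 and Myl9 averaged 0.589 and 0.594 CPM in unloaded and 1.29 and 1.62 CPM in control libraries. They rest on at most 41 counts in any library, which limits their precision.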
